A study of Homo sapiens with 6 samples.

Results

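The 30 genes described here carry out the synthesis of cholesterol and its control by the SREBP transcription factors, together with a few genes that move or store sterols. They were chosen by gene symbol, and all 30 were found among the 18365 genes that had a probe with a single symbol on the array. RNA from LX2 cells, an established line of human hepatic stellate cells, had been hybridised to 6 one-channel Phalanx microarrays, 3 of cells given Syy and 3 of control cells. Syy is a code name for a small molecule which the submitters describe as blocking secretion by stellate cells. The agent is the only labelled difference between the groups. No dose, duration or control vehicle is given in the sources used here. Both groups are the same line, and since nothing in the labels speaks of separate cultures, each p-value reflects array-to-array spread that could be technical in part. Of 15 measured markers of stellate cells, 11 averaged above the median of all probes, among them VIM, TAGLN and ACTA2. COL1A2 lay below that median, and DES, GFAP and LRAT lay near the array's floor with and without Syy. Of 19 measured hepatocyte markers 10 also averaged above the median, so this cut alone does not tell the cell types apart.

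Cells build cholesterol from acetyl-CoA through mevalonate, the isoprenoids, squalene and lanosterol. The isoprenoids also leave the pathway for the prenylation of small GTPases, for dolichol and for ubiquinone. The SREBP proteins are held in the membrane of the endoplasmic reticulum by SCAP and the INSIG proteins while sterol is plentiful. When sterol falls they move to the Golgi, where the proteases encoded by MBTPS1 and MBTPS2 cut them in turn, and the released fragments switch on most genes of the pathway. In hepatic stellate cells, an excess of free cholesterol has been linked to activation in mouse studies.

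Most of the genes called with Syy rose, but the 30 genes did not all move in 1 direction. Of the 30 genes, 10 rose (33.3%), 1 fell (3.33%) and 19 did not pass the test (limma, Benjamini-Hochberg adjusted over all genes, threshold 0.05). Over all genes tested, 11% were called higher and 11.5% lower, 22.4% in either direction. The genes that rose were ACAT2 and AACS at the entry, FDFT1, SQLE and LSS in the squalene and lanosterol steps, HSD17B7 and DHCR7 near the end, and SREBF1, SREBF2 and MBTPS1 among the regulators. The gene that fell was SC5DL. In 11 genes the 3 Syy values all lay above the 3 control values and in 5 they all lay below, against 18.9% and 19.4% of all genes (38.3% in either direction). The median log2 fold change was 0 over the 30 genes, on a scale where quantile normalization sets the median of all genes near 0. Without control replicate 1 the number of genes called higher was 6, and it was also 6 without control replicate 3. The share of all genes called higher was then 6.52% and 7.12%, and no gene of the 30 was called lower in either fit. The balance over all genes depended on the scaling. After median centring 13.6% of all genes were called higher and 9.04% lower, with 9 of the 30 higher and 1 lower, and the median log2 fold change was 0.10 over the 30 genes and -0.04 over all genes. In the values as deposited these shares were 17.2% and 4.02%, with 12 of the 30 higher and 1 lower, and the medians were 0.23 and 0.08.

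**Figure D1:**
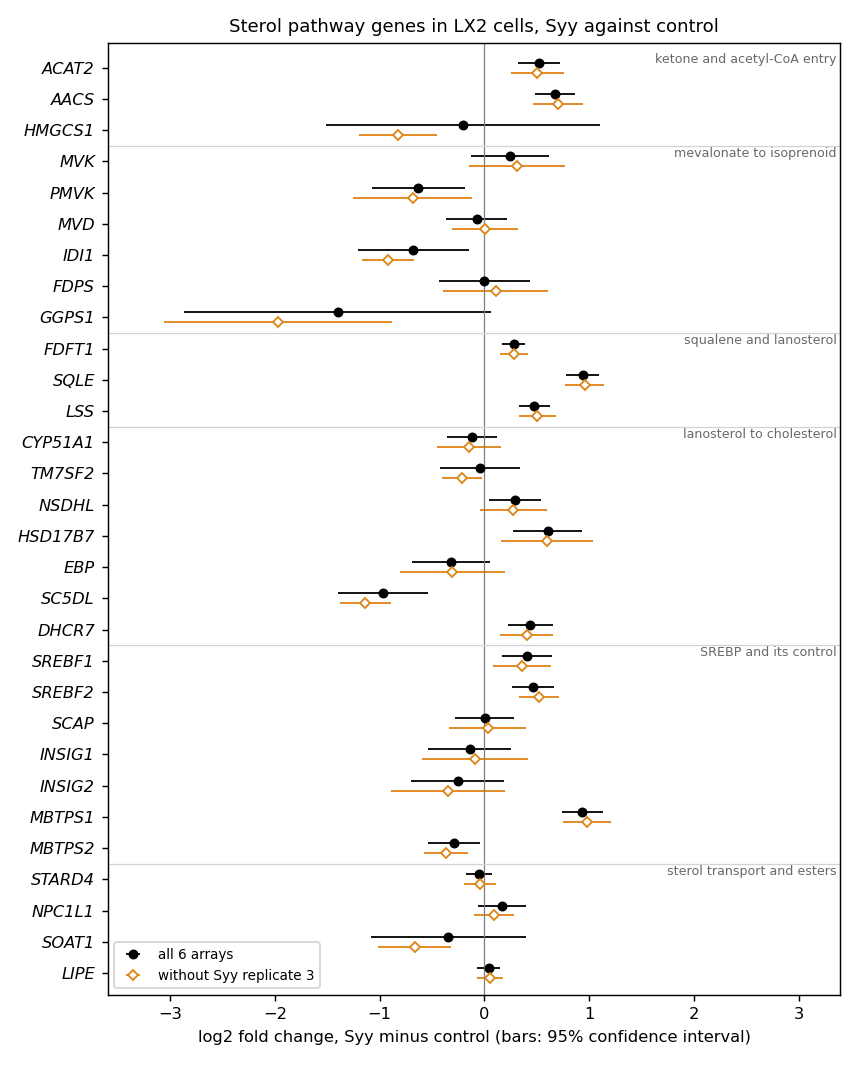
Log2 fold change of each of the 30 genes, Syy minus control, in pathway order, from all 6 arrays (black) and without Syy replicate 3 (orange); bars are 95% confidence intervals. SQLE and MBTPS1 lie farthest to the right, at 0.94 and 0.93 with all arrays, and GGPS1 farthest to the left, at -1.40 with an interval from -2.87 to 0.06.

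Levels below are normalized log2(intensity + 16), and fold changes are on that scale, on which the change of a dim gene is understated. Syy replicate 3 differed from the other Syy arrays, and several results below rest on it. Of 19 hepatocyte markers, 11 exceeded the average of Syy replicates 1 and 2 by over 1 log2 unit on this array, and 0 exceeded the average of the remaining controls by as much on a control array. The summed deposited intensity of these markers was 26140 in Syy replicate 3 and 536 and 889 in Syy replicates 1 and 2, against 849, 609 and 486 in control replicates 1, 2 and 3. In 6 of the 30 genes Syy replicate 3 lay more than 0.5 above the mean of Syy replicates 1 and 2, which was so for 4.30% of all genes. They were HMGCS1 (1.86 above), GGPS1 (1.76), SOAT1 (1.00), IDI1 (0.72), SC5DL (0.56) and TM7SF2 (0.51). Whether the hepatocyte transcripts on that array play a part in these values was not tested.

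At the entry to the pathway, both enzymes that make acetoacetyl-CoA in the cytosol rose. ACAT2, the cytosolic thiolase, read 12.09, 11.94 and 12.08 in the Syy cells, against 11.46, 11.43 and 11.65 in the control cells. The groups were apart, and the gene was 1.44-fold higher (log2 fold change 0.52 ± 0.08 SE, adjusted p = 0.00976). AACS, which makes acetoacetyl-CoA from the ketone body acetoacetate, read 11.26, 11.20 and 11.16 with Syy, against 10.43, 10.68 and 10.50 in controls. All 3 Syy values again lay above all 3 control values, and AACS was 1.59-fold higher (0.67 ± 0.08, adjusted p = 0.00453). HMGCS1, the cytosolic HMG-CoA synthase that follows them, read 6.71, 7.01 and 8.72 with Syy, against 7.86, 7.54 and 7.67 in controls. Syy replicates 1 and 2 were below every control and Syy replicate 3 was above every control, so the groups overlapped and the gene did not pass (log2 fold change -0.21, 95% interval -1.51 to 1.10).

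None of the 6 genes of the mevalonate and isoprenoid steps passed the test, although in 3 of them every Syy value lay below every control value. PMVK, phosphomevalonate kinase, read 9.63, 8.95 and 9.45 with Syy, against 9.88, 10.01 and 10.03 in controls. Its log2 fold change was -0.63 (adjusted p = 0.0570), and it passed without Syy replicate 1 or without Syy replicate 2. IDI1, the isopentenyl diphosphate isomerase, read 7.62, 7.66 and 8.36 with Syy, against 8.69, 8.42 and 8.57 in controls. Its difference was -0.68 (adjusted p = 0.0755), with Syy replicate 3 close to the lowest control. GGPS1, which makes the geranylgeranyl group used to anchor small GTPases in membranes, read 6.11, 4.76 and 7.20 with Syy, against 7.60, 7.36 and 7.32 in controls. The Syy arrays were widely scattered (SD 1.22, against 0.154 in controls), and the difference of -1.40 did not pass (95% interval -2.87 to 0.06). In deposited intensity GGPS1 read 57.2, 12.6 and 141.4 in the Syy cells, against 175.7, 135.9 and 116.8 in the control cells. MVK, mevalonate kinase, read 0.24 higher (95% interval -0.12 to 0.61), MVD, which decarboxylates mevalonate diphosphate, 0.07 lower (-0.36 to 0.21) and FDPS, which makes farnesyl diphosphate, lay level with the controls (-0.43 to 0.43).

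All 3 enzymes that turn farnesyl diphosphate into lanosterol rose. SQLE, the squalene epoxidase and a rate-limiting step of the pathway, read 8.00, 7.94 and 7.90 with Syy, against 6.98, 7.10 and 6.93 in controls. It had the smallest adjusted p of the 30 genes and was 1.92-fold higher (log2 fold change 0.94 ± 0.06 SE, adjusted p = 0.00219). In deposited intensity SQLE read 255.6, 272.4 and 242.3 in the Syy cells, against 110.6, 110.5 and 85.5 in the control cells. The gap between the groups was thus far wider than the spread within either. LSS, the cyclase that makes lanosterol, read 10.87, 11.00 and 10.86 with Syy, against 10.50, 10.39 and 10.42 in controls, a 1.39-fold rise (0.48 ± 0.06, adjusted p = 0.00587). FDFT1, the squalene synthase that commits isoprenoids to sterols, read 13.38, 13.32 and 13.33 with Syy, against 13.06, 13.10 and 13.04 in controls. Its rise was small, 1.21-fold (0.28 ± 0.05, adjusted p = 0.0116), and the call was lost after median centring of the arrays (log2 fold change 0.18, adjusted p = 0.213).

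**Figure D2:**
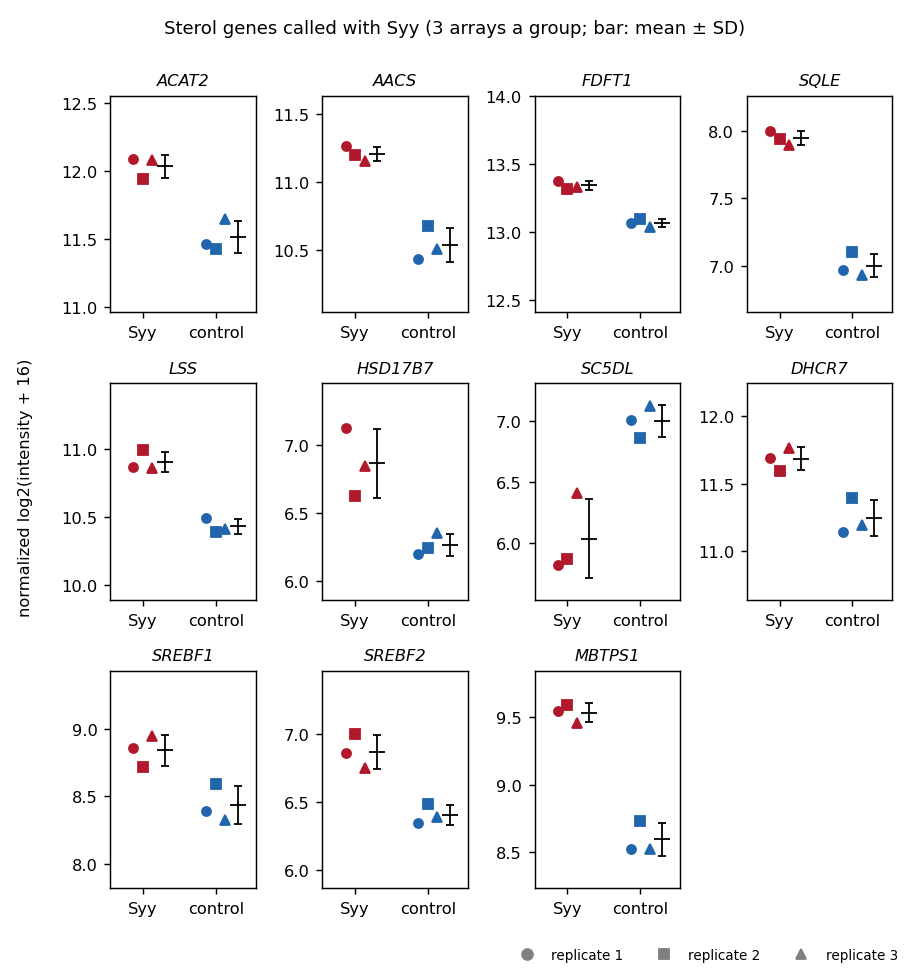
Normalized log2(intensity + 16) of the 11 genes that passed the test, on each of 3 Syy and 3 control arrays, with mean ± SD. In the 10 genes that rose every Syy value lies above every control value, and in SC5DL, where Syy replicate 3 (6.41) sits above the other Syy arrays (5.82 and 5.87), every Syy value lies below.

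The steps from lanosterol to cholesterol were divided, with 2 genes higher, 1 lower and 4 not passing. HSD17B7, the ketoreductase of sterol demethylation, read 7.13, 6.62 and 6.85 with Syy, against 6.20, 6.24 and 6.35 in controls. It was 1.52-fold higher (0.60 ± 0.13 SE, adjusted p = 0.0270), but the call was lost when Syy replicate 3 or any 1 control was left out, and the genome holds a near-identical copy of this gene, whose part in the value was not tested. DHCR7, the reductase of the last step to cholesterol, read 11.69, 11.60 and 11.77 with Syy, against 11.14, 11.39 and 11.20 in controls. It was 1.36-fold higher (0.44 ± 0.09, adjusted p = 0.0184), a call lost without Syy replicate 1, control replicate 1 or control replicate 3. SC5DL, now named SC5D, the desaturase just before DHCR7, moved the other way and was 1.95-fold lower. It read 5.82, 5.87 and 6.41 with Syy, against 7.01, 6.86 and 7.13 in controls (log2 fold change -0.97 ± 0.17, adjusted p = 0.0149). The call was lost without Syy replicate 2, control replicate 1 or control replicate 3.

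Of the enzymes in this stretch that did not pass, NSDHL, the dehydrogenase that acts with HSD17B7, was 0.29 higher with no overlap between the groups (10.75 to 11.07 with Syy, against 10.54 to 10.73 in controls, adjusted p = 0.0923). CYP51A1, the lanosterol demethylase, differed by -0.12 (95% interval -0.36 to 0.12) and TM7SF2, a sterol reductase, by -0.04 (-0.43 to 0.34). EBP, the sterol isomerase, read 0.32 lower (-0.70 to 0.05). The Syy and control values overlapped in CYP51A1, TM7SF2 and EBP.

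Among the regulators, the precursors SREBF1 and SREBF2 and the first protease MBTPS1 rose, while SCAP, INSIG1, INSIG2 and MBTPS2 did not pass. MBTPS1, the site-1 protease of the Golgi that makes the first cut in the SREBP proteins and in ATF6, read 9.55, 9.59 and 9.45 with Syy, against 8.53, 8.73 and 8.53 in controls. It was 1.91-fold higher (0.93 ± 0.08 SE, adjusted p = 0.00243), and the lowest Syy value was well above the highest control. SREBF2, which encodes the SREBP most tied to cholesterol synthesis, read 6.87, 7.00 and 6.75 with Syy, against 6.34, 6.49 and 6.39 in controls (1.38-fold, 0.47 ± 0.08, adjusted p = 0.0135). SREBF1, which encodes the SREBP forms that favour fatty acid genes, read 8.86, 8.72 and 8.94 with Syy, against 8.39, 8.59 and 8.32 in controls (1.32-fold, 0.40 ± 0.10, adjusted p = 0.0334). Both groups of values were apart for both genes. Each call was lost without control replicate 1 or control replicate 3, and that of SREBF1 also without Syy replicate 1 or 3.

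The genes for the proteins that hold or move SREBP, and for the second protease, did not pass on their brightest probes. SCAP, the escort that senses sterol, read 8.97, 8.79 and 8.80 with Syy, against 8.69, 9.08 and 8.79 in controls (95% interval of the difference -0.28 to 0.29). INSIG1, itself a target of SREBP, read 8.18, 8.62 and 8.25 with Syy, against 8.70, 8.51 and 8.26 in controls, and the groups overlapped in part (-0.14, interval -0.54 to 0.26). INSIG2 differed by -0.26 (-0.70 to 0.19). MBTPS2, the site-2 protease that makes the final cut, read 5.94, 5.87 and 6.17 with Syy, against 6.41, 6.24 and 6.19 in controls, just apart and not called (-0.29, adjusted p = 0.0981).

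Promoter sequences of 6 of these genes are given below because they differ in the sites through which SREBP and its partner NF-Y are known to act, and because the genes differ in the array data. The sequences are RefSeq, build GRCh38.p14, and each shows the 250 bases before the transcription start, 5′ to 3′ on the strand of the gene. Capitals mark matches, on either strand, to the core of the sterol regulatory element (TCACNCCAC), to the NF-Y box (CCAAT) or to the GC box (GGGCGG), and no match overlaps one of another kind. SREBF2, LSS, HSD17B7 and MBTPS1 rose, SC5DL fell, and HMGCS1 was lower in Syy replicates 1 and 2 only.
SREBF2, chr22:41832855-41833104, + strand: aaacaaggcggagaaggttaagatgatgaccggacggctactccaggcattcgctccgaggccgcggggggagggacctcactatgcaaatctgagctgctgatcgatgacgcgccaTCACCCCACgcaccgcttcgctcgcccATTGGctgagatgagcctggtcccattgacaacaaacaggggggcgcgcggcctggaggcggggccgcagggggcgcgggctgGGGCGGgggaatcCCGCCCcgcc
LSS, chr21:46228775-46229024, − strand: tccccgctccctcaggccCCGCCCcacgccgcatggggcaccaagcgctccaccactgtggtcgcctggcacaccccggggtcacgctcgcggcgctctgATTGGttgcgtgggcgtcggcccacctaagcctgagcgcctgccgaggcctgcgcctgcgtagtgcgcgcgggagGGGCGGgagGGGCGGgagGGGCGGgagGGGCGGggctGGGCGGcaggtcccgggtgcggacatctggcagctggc
HSD17B7, chr1:162790452-162790701, + strand: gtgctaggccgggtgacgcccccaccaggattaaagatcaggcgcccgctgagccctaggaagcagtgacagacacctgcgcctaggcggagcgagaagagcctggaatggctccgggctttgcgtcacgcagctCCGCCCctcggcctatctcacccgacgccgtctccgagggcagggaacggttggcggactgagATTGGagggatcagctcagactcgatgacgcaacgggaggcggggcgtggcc
MBTPS1, chr16:84116943-84117192, − strand: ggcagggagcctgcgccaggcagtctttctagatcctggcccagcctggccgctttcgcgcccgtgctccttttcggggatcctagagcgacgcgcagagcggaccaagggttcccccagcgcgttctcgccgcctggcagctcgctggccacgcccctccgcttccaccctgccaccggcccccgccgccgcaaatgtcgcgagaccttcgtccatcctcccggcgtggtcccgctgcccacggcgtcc
SC5DL, chr11:121292521-121292770, + strand: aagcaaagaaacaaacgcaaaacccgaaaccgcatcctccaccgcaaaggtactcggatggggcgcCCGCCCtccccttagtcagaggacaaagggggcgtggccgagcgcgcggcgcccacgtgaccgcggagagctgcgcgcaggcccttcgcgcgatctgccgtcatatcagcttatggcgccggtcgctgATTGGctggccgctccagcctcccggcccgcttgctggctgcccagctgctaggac
HMGCS1, chr5:43313413-43313662, − strand: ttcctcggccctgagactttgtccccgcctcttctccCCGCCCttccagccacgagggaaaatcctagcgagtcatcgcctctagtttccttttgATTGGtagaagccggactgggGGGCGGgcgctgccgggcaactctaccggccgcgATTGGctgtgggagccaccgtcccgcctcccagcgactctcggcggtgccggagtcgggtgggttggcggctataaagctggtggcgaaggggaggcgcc

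Within the 250 bases shown, SREBF2 held the sterol element, starting 133 bases before the start site, and an NF-Y box 106 bases before it, read on the opposite strand as ATTGG. In the same stretch LSS, HSD17B7 and SC5DL held 1 NF-Y box each and HMGCS1 held 2. MBTPS1 had no match to any of these motifs. Windows from 250 bases before to 50 after each start site were searched for 27 of the 30 genes. The sterol element core in these exact letters was found in 1 of the 27, SREBF2, against 1.54% of the 14641 array genes with a window. An NF-Y box was found in 19 of the 27 (70.4%), against 42.3% of the array genes, and a GC box in 23 (85.2%), against 66.1%. Among the genes that rose with Syy, 4 of the 7 searched had an NF-Y box, and among the others 15 of 20. ACAT2, FDFT1 and SQLE were not searched and all of them rose, so the first share leaves them out. A match is a description of the letters, and a missing match says only that these letters are not in the window.

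The genes of sterol transport and esters did not pass the test. SOAT1, which esterifies cholesterol for storage, read 6.01, 6.36 and 7.19 with Syy, against 6.99, 6.80 and 6.80 in controls. Here too Syy replicates 1 and 2 were below the controls and Syy replicate 3 was above them (-0.34, 95% interval -1.08 to 0.39). STARD4, a carrier of cholesterol between membranes, NPC1L1, the sterol importer of the gut, and LIPE, a lipase that also splits cholesterol esters, lay below the median of all probes. Their deposited intensities were 4.81 to 13.5 in the Syy cells, against 3.68 to 8.67 in the control cells, too close to the floor for a change to be read.

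Leaving out Syy replicate 3 gave a different balance, 8 genes higher and 6 lower, against 9.73% and 10.7% of all genes in that fit. The 8 higher genes were all among the 10 called over 6 arrays, without HSD17B7 and SREBF1. The 6 lower genes were HMGCS1, IDI1, GGPS1, SC5DL, MBTPS2 and SOAT1, of which SC5DL alone had passed with all arrays. GGPS1 was then 3.92-fold lower (log2 fold change -1.97 ± 0.41 SE, adjusted p = 0.037) and SC5DL 2.20-fold lower (-1.14 ± 0.09, adjusted p = 0.00816). In GGPS1 Syy replicate 2 lay near the floor (deposited intensity 12.6), so the size of its fall is uncertain. Over the 14 alternatives run, the log2 fold change of GGPS1 ranged from -2.01 to -0.73. IDI1 was 1.89-fold lower (-0.92 ± 0.09, adjusted p = 0.00962), HMGCS1 1.77-fold lower (-0.83 ± 0.14, adjusted p = 0.0232) and SOAT1 1.59-fold lower (-0.67 ± 0.13, adjusted p = 0.0314). MBTPS2 was 1.29-fold lower (adjusted p = 0.0409). In each of these 6 genes Syy replicate 3 was the highest of the Syy arrays. Apart from SC5DL, they entered this group by passing once that array was left out, which favours genes where it read highest. That fit rests on 2 Syy arrays. Without both Syy replicate 3 and control replicate 2, AACS, SQLE and MBTPS1 were called higher and IDI1 and SC5DL lower, where 3.08% and 2.92% of all genes were called.

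**Figure D3:**
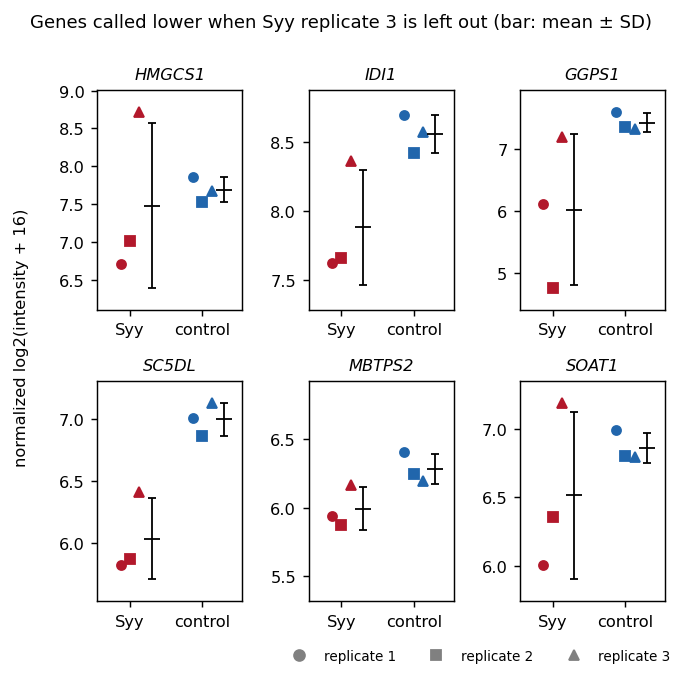
Normalized log2(intensity + 16) on each array, with mean ± SD, of the 6 genes that were called lower when Syy replicate 3 was left out. Triangles on the left of each panel are Syy replicate 3, which reads 8.72 for HMGCS1 where the other Syy arrays read 6.71 and 7.01 and the controls 7.54 to 7.86.

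Each gene was represented by its brightest probe, and 11 of the 30 had more than 1. Of their 23 probes, 6 were called when all probes were tested, against 17.8% of all probes. In 7 of the 11 genes all probes gave the same verdict, which outside ACAT2 was that none was called. LSS, SC5DL, SREBF1 and INSIG2 were split, and the second probes of GGPS1 and MBTPS2 lay near the floor. Both probes of ACAT2 rose, by 0.52 and 0.54. The second probe of INSIG2 fell by 1.13 ± 0.12 (SE, adjusted p over all probes = 0.00476). It read 5.96, 6.09 and 6.40 with Syy, against 7.22, 7.28 and 7.32 in controls, whereas the brightest probe was not called, so the verdict on INSIG2 depends on the probe. The second probe of FDPS read 0.51 higher with no overlap between the groups (adjusted p over all probes = 0.05003), where the brightest read level. The genome also holds near-identical copies of FDPS, whose part in these values was not tested. IDI1 read 0.35 lower on its second probe, where the groups overlapped, and 0.68 lower on its brightest, where they did not. Neither probe of IDI1 was called. The second probe of SOAT1 read 0.44 higher, also with no overlap, where the brightest read 0.34 lower, and neither was called. On that second probe Syy replicates 1 and 2 read 6.90 and 6.46, against 6.39, 6.39 and 6.24 in controls. The fall of SOAT1 without Syy replicate 3 therefore rests on the brightest probe. SC5DL fell on 1 of its 2 probes (the other read -0.08), SREBF1 rose on 1 of 2 (the other read 0.36), and the second probe of LSS lay near the floor. Probe positions and sequences were not used here.

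**Figure D4:**
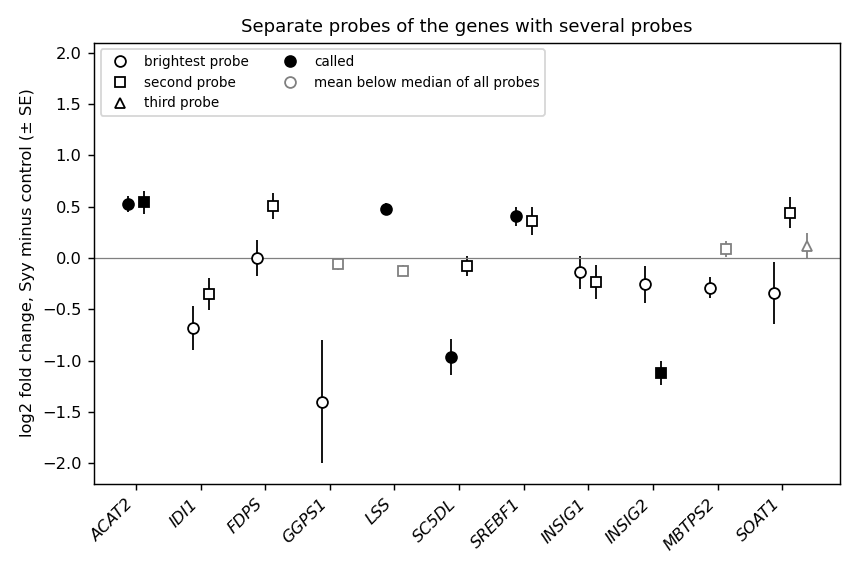
Log2 fold change (± SE), Syy minus control, of every probe of the 11 genes with several probes; filled symbols passed the test over all probes and grey symbols average below the median of all probes. INSIG2 reads -0.26 on its brightest probe and -1.13 on its second, which passed.

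Outside the 30 genes, 106 measured genes of related sterol and lipid steps were set beside them. Of these 18 rose and 14 fell, 17.0% and 13.2%, against 11% and 11.5% of all genes. The counts were 20 and 10 after median centring and 29 and 5 in the values as deposited. Of these genes, 9 fell without control replicate 1 and 8 without control replicate 2, where 6.28% and 5.92% of all genes fell. ACLY, the lyase that supplies cytosolic acetyl-CoA to both sterol and fatty acid synthesis, was 1.97-fold higher, at 13.01 ± 0.09 with Syy and 12.03 ± 0.09 in controls (SD, n = 3 each, adjusted p from limma 0.0023). ACAT1, the mitochondrial thiolase, was not called (-0.03). Of 14 fatty acid genes under SREBP control 5 rose and 1 fell (35.7% and 7.14%). Without Syy replicate 1, Syy replicate 2, control replicate 1 or control replicate 2, 3 were higher. The shares of all genes called higher in those fits were 9.58%, 7.72%, 6.52% and 6.75%. FASN, fatty acid synthase, was 1.50-fold higher, and ACACA and ACACB, the acetyl-CoA carboxylases, 1.49-fold and 1.44-fold higher. ELOVL5, which lengthens polyunsaturated fatty acids, was 2.01-fold lower.

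In sterol sensing and degradation in the endoplasmic reticulum 6 of 16 genes rose and 4 fell (37.5% and 25%). Over all genes these shares were 11% and 11.5%. The count of higher genes was 3 without Syy replicate 3, control replicate 1 or control replicate 3. In those fits 9.73%, 6.52% and 7.12% of all genes were higher. The count of lower genes was 1 in the values as deposited, where 4.02% of all genes were lower. UBE2G2, a ubiquitin-conjugating enzyme, was 1.52-fold higher, ERLIN1, of the membrane complex that hands over proteins for degradation, 1.56-fold higher, and VCP, the ATPase that extracts them, 1.57-fold higher. RNF139, a ubiquitin ligase of that membrane that binds INSIG proteins, was 1.44-fold lower. In the isoprenoid branch 1 of 14 genes rose and 2 fell (7.14% and 14.3%), near the shares of all genes. ICMT, which methylates prenylated proteins, was 1.53-fold higher, while RABGGTB, a subunit of the enzyme that attaches geranylgeranyl groups to RAB proteins, was 2.55-fold lower and PDSS1, of ubiquinone side chain synthesis, 1.41-fold lower. Without control replicate 1 neither RABGGTB nor PDSS1 was called, and PDSS1 was also lost after median centring and without Syy replicate 1, Syy replicate 2 or control replicate 2. IDI2, a relative of IDI1, lay near the floor with and without Syy.

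In sterol uptake and transport 4 of 31 genes rose and 4 fell, 12.9% each, near the 11% and 11.5% of all genes. The count of lower genes was 1 (GRAMD1C) without Syy replicate 2, control replicate 1 or control replicate 2, and 2 without control replicate 3. In those fits, in that order, 6.89%, 6.28%, 5.92% and 6.27% of all genes were lower. Without any scaling 9 of these genes were higher and 2 lower, where 17.2% and 4.02% of all genes were called. LRP1, an endocytic receptor for lipoproteins, was 1.51-fold higher, NPC1, which exports cholesterol from lysosomes, 1.41-fold higher and OSBPL2, an oxysterol-binding protein relative, 1.56-fold higher. GRAMD1C, whose relatives move cholesterol from the plasma membrane, was also lower. It read 4.17, 4.17 and 5.39 with Syy, against 7.05, 7.00 and 7.00 in controls, with Syy replicates 1 and 2 at the floor of the array and Syy replicate 3 above them. The size of its change therefore depends on the pseudocount, with a log2 fold change of -3.52 at a pseudocount of 4 and -1.28 at 64. SOAT2 was 0.31 higher without passing. Of 11 genes of the LXR axis, which responds to excess sterol, 1 rose and 2 fell (9.09% and 18.2%). LPCAT3, a phospholipid remodelling enzyme, was 1.58-fold higher. RXRB, a receptor that pairs with LXR, was 1.33-fold lower. The phosphodiesterase SMPDL3A was also 1.33-fold lower, on a probe dimmer than the median. ABCA1 and ABCG1, which export cholesterol and are LXR targets, were not called (-0.07 and -0.05). ABCG1 lay near the floor with and without Syy, too low for a change to be read. Among 13 other sterol enzymes POR, which feeds electrons to CYP51A1 and SQLE, fell by 0.30 (7.69% of the list) and none rose. The calls of RXRB and POR were both lost after median centring and without control replicate 2 or 3, and that of RXRB also without Syy replicate 2 or 3.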

How the data were processed

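Deposited values were linear intensities of 31741 probes on 6 arrays; per the labels' protocols they came from amino allyl RNA labelled with Cy5, and the authors' scanner software, background method and scaling target are not stated. The lowest deposited value was -10.6, and 1902 probes reached 0 or less on some array. No detection flags were used. The number of arrays limits the precision.

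Intensities were converted to log2(value + 16) and quantile normalized over the 6 arrays. Probes were named from the platform annotation (24740 with 1 symbol, 977 with several, 6024 unnamed), and each gene was taken as its probe with the highest mean. Groups came from the sample titles. Syy was compared with control by the moderated linear model of limma 3.58.1 (R 4.3.3), two-sided and with no covariate, with Benjamini-Hochberg adjustment over 18365 genes and a threshold of 0.05; the steps were tested on simulated data. Every one of the 30 genes is given; of the related lists, at most 4 called genes with the smallest p each, plus ACAT1, SOAT2 and IDI2, are named. ABCA1 and ABCG1 were added after their values were seen. The genes, lists and alternatives were chosen with earlier results of these data known. Alternatives changed the scaling, the pseudocount, the filter on dim probes, the choice of probe, the replicate block and the arrays used. Promoters are RefSeq sequences, and 3 genes that all rose (ACAT2, FDFT1 and SQLE) were not searched.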

Additional observations from a re-analysis of the deposited data

How the results depend on the processing

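Of the 11 genes called over 6 arrays, 3 (AACS, SQLE and MBTPS1) were called under each of the 14 alternatives run, and the value of none of the 11 changed sign. Among the 19 genes not called, 10 changed sign under some alternative and 9 of the 19 passed in at least 1. The counts of the 30 genes were within 1.5 times under median centring, both other pseudocounts (4 and 64) and the values as deposited. With probes above the median, which leaves fewer genes to adjust over, 3 of the 27 genes kept were lower, against 19.1% of all genes in that fit. With the mean over probes 2 of the 30 were lower, INSIG2 beside SC5DL, against 11% of all genes. In the values as deposited 29 related sterol genes were higher and 5 lower, with 3155 and 738 over all genes.

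Leaving out 1 array at a time, or Syy replicate 3 with control replicate 2, also lowers power. Over these fits the 30 genes had 3 to 11 higher and 0 to 6 lower, the related genes 5 to 17 higher and 6 to 17 lower, and all genes 566 to 1787 higher and 537 to 1965 lower. The lower counts among the 30 were 6 without Syy replicate 3 and 0 without control replicate 1 or 3. Without Syy replicate 2 the single lower gene was PMVK in place of SC5DL.

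With the replicate number as a block, 6 of the 30 were higher and 1 lower, 11 and 9 of the related genes, and 1051 and 852 of all genes. No pairing by replicate number was seen: deviations of same-numbered arrays from their group means correlated at -0.08, -0.08 and -0.03 over genes. Such values do not show that the arrays were unpaired, since a pairing with little shared variation would also give them. Dim probes, among them those of STARD4, NPC1L1 and LIPE, limit what can be read, and these 3 have no value with probes above the median. The cause of these differences between settings was not tested.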
